A study of Mus musculus with 19 samples.

Results

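The immediate early genes examined here were the AP-1 subunit genes Fos, Fosb, Jun and Junb, the zinc finger genes Egr1, Egr2 and Egr3, the early response gene Ier2, the orphan nuclear receptor gene Nr4a1 and the stress-responsive gene Atf3. They were chosen by name, as a family of rapid-response transcription regulators, with earlier results of these data known. They made up 10 of the 24552 gene symbols in the tables. The study sequenced bulk RNA of the cornea, which was corneal epithelium collected by scraping, and of the surgically excised conjunctiva from female C57BL/6J mice (C57BL/6 in the labels). AL mice ate ad libitum, and CR mice, on calorie restriction, received their food daily just before the dark phase. There were 5 AL and 5 CR libraries of the cornea and 4 AL and 5 CR libraries of the conjunctiva, so 19 libraries in 4 groups. All titles carried the marks 6M and 50W, and the design text called the mice young. The paper describes the mice as middle-aged, with calorie restriction lasting 4 months. The labels name no transgene, deletion or other treatment and give diet as the only difference between the groups of a tissue, and libraries are named below by diet and by the number in the title.

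Immediate early genes are transcribed within minutes of a stimulus such as a growth factor, light, injury or mechanical stress, because the proteins that activate them are already present in the cell and need only be phosphorylated. FOS proteins pair with JUN proteins to form AP-1, which binds short DNA elements in many genes of proliferation, wound healing and matrix turnover, while EGR proteins bind GC-rich elements. Their transcripts are short-lived, and in the ocular surface epithelia they are known as early responders to wounding.

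The protein-coding genes lie on several chromosomes. In the RefSeq annotation of GRCm38.p6, Fos spans chr12:85473890-85477274, Fosb chr7:19302696-19310118, Jun chr4:95049036-95052222 and Junb chr8:84976909-84978748. Egr2 spans chr10:67534469-67542188, Egr3 chr14:70077317-70082613, Ier2 chr8:84661331-84662852, Nr4a1 chr15:101253902-101274795 and Atf3 chr1:191170296-191183333. Egr2 overlapped 1 annotated gene, Gm32255, so its reads are uncertain, since the sources do not settle whether counting used strand. None of the others with a span given here overlapped another gene in that annotation.

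RefSeq promoter windows matched 7 of the 10 genes, namely Fos, Fosb, Jun, Junb, Egr2, Nr4a1 and Atf3. Of these, 4 are printed because they belong to the AP-1 subunits and the AP-1 partner whose levels are compared across libraries, and because their single annotated start was also the outer end of the gene. Each run gives the 150 bases before the transcription start, 5′ to 3′ on the strand of the gene, with the core of the cyclic AMP response element (CRE), TGACG or its reverse complement CGTCA, and the TATA box, TATAAA, in capitals. The positions are chr12:85473740-85473889 on the plus strand for Fos, chr4:95052223-95052372 on the minus strand for Jun, chr8:84978749-84978898 on the minus strand for Junb and chr1:191183334-191183483 on the minus strand for Atf3.
Fos: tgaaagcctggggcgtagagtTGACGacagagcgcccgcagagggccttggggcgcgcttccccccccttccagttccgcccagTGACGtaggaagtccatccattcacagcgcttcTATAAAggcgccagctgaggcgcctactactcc
Jun: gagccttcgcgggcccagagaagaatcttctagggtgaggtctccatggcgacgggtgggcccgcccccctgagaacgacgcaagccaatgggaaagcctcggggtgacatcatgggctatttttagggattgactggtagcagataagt
Junb: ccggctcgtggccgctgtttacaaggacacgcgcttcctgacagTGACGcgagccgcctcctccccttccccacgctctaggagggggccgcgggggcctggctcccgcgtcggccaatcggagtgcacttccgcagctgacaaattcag
Atf3: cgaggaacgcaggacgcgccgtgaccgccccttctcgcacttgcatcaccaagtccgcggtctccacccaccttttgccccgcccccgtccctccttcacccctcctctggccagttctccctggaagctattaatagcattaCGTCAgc

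Letters were searched on both strands in the 250 bases before each start. TGACG was present for 6 of the 7 genes (Fos, Fosb, Junb, Egr2, Nr4a1 and Atf3) and in 17.7% of all 32817 distinct windows of the table. Fos held it from 129 to 125 and from 66 to 62 bases before the start, and Atf3 held the reverse complement from 7 to 3 bases before the start. The full CRE, TGACGTCA, which contains the core and is also counted in it, was in none of the 7 genes and in 1.55% of windows. The AP-1 letters TGANTCA were in none of the 7 genes and in 6.75% of windows, the TATAAA letters were in Fos and in 12.4% of windows, and the EGR letters GCGNGGGCG were in Fosb and Nr4a1 and in 4.7% of windows. The CArG box, bound by serum response factor, was matched in the windows of Egr2 and in 1.47% of all windows. A match is a description of letters and not a binding site, and no match says only that these letters were not in the window.

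The cornea libraries held 10354125 to 14681223 counted reads, and those of the conjunctiva 10726717 to 14433441. Levels are normalized counts, the read count divided by the size factor of its library, and a count of 0 allowed up to 3 reads, or 2.27 to 3.37 normalized counts, for counting error only. The labelled tissues were checked against marker genes. Krt12, the cornea-specific keratin, lay between 179846 and 340965 normalized counts in the cornea, against 436 to 5139 in the conjunctiva. Muc5ac, the goblet cell mucin, lay between 0 and 43.3 in the cornea, against 2328 to 6593 in the conjunctiva. Conjunctiva libraries also held skeletal muscle markers, which summed to 11731 to 117264 normalized counts over 6 genes. Cornea CR 7 stood apart from the other cornea libraries. It had the highest share of genes at 0 (47.6%, range 38.7% to 47.6%), the highest share of reads on the ribosomal RNA gene Rn45s (15.1%, lowest library 8.98%), the lowest sum of the 5 corneal epithelium markers (459077, against 529306 to 671962 in the other libraries) and the highest sum of the 7 conjunctival epithelium and goblet cell markers (63519.9, against 25662.2 to 42004.1). Goblet cell markers hardly entered that sum, since Muc5ac, Spdef and Foxa3 reached at most 43.3, 5.50 and 8.74 in any cornea library. The keratin gene Krt13 alone reached 48151. CR 7 also had the highest sums of the fibroblast (2146) and neutrophil (518) markers and the lowest sum of the macrophage markers (179). Of the neutrophil markers, Ly6g and Mpo were at 0 in every cornea library, and S100a9 reached the highest level (484, against at most 85.1 for S100a8). Of the fibroblast markers, Dcn reached the highest level (1141). Cornea AL 1 had the highest sum of lacrimal gland markers (1828, against 56.7 to 395 in the other cornea libraries), and its part in the values was not tested. Because of CR 7, log2 changes, correlations and spreads of the members in the cornea are also given without that library.

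The first comparison asked whether CR and AL corneas differed in these genes. Of the 10 genes, 8 reached a mean of 10 normalized counts and were tested, and 0 of the 8 were called at an adjusted p under 0.05 and a fold over 1.5 by limma, beside 1.22% of all 12278 genes tested. At an unadjusted p under 0.05, 1 of the 8 passed (Junb), beside 18.1% of all genes, and voom, a count-based variant of limma, also called 0. The mean on the log2 scale was higher under CR for 6 genes and lower for 2, with a median log2 change (CR minus AL, on log2 of normalized count plus 1) of 0.25 over the 8 genes and -0.03 over all genes. None of the 8 had groups that did not overlap, beside 3.97% of all genes. Since this was bulk RNA, fewer cells of a type and less RNA per cell cannot be told apart, and p-values measure the spread between these libraries.

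Junb, an AP-1 subunit that often restrains proliferation in epithelium, had the smallest p in the cornea. Its level was 4164, 3599, 3638, 4471 and 4320.4 normalized counts in AL 1 to AL 5 and 3686, 6019, 6209, 5864 and 5749 in CR 1, CR 2, CR 3, CR 4 and CR 7. All CR libraries but CR 1 lay above every AL library. The means were 4038 ± 399 (SD, n = 5) in AL and 5506 ± 1031 (SD, n = 5) in CR, a log2 change of 0.43 ± 0.13 (SE; 95% confidence interval 0.15 to 0.70) with an unadjusted p of 0.0043 and an adjusted p of 0.108 by limma. The log2 change was 0.41 without CR 7 and 0.19 in a fit with a covariate for the percentage of genes at 0 in each library. Without CR 1, it was 0.57 with an adjusted p of 0.0066, which passed the p threshold and not the fold threshold, and without AL 4 the adjusted p was 0.0499. Over all alternatives the adjusted p ranged from 0.0066 to 0.593.

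Fos, the partner of JUN proteins in AP-1 and the most widely used marker of recent cell stimulation, was at 358, 244, 281, 325 and 417 normalized counts in AL 1 to AL 5. In CR 1, CR 2, CR 3, CR 4 and CR 7 it was at 246, 401, 544, 427 and 995. CR 3, CR 4 and CR 7 lay above all AL libraries, while CR 1 lay among the lowest, so the groups overlapped. This gave a log2 change of 0.56 ± 0.30 (SE, interval -0.10 to 1.22, adjusted p = 0.356 by limma). It was 0.29 without CR 7 and 0.063 with the covariate for genes at 0.

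Fosb, a FOS family subunit with a longer-lived splice form, was at 88.0, 87.4, 168, 43.3 and 81.4 normalized counts in AL 1 to AL 5 and at 41.6, 62.2, 75, 110.4 and 337 in the CR libraries in the order above. CR 7 was the highest and CR 1 the lowest of the 10 libraries. Its log2 change was 0.13 ± 0.51 (SE, interval -0.96 to 1.23, adjusted p = 0.917 by limma), and it turned to -0.32 without CR 7 and to -0.11 without AL 4. Jun, whose protein can pair with itself or with FOS proteins, was at 2409, 2048, 2296, 1799 and 1881 in AL and at 1762, 1452, 1564, 1822 and 3259 in CR. For Jun, 3 CR libraries lay below all AL libraries and CR 7 lay above all of them. The log2 change was -0.14 ± 0.18 (SE, interval -0.52 to 0.25, adjusted p = 0.724 by limma), and -0.34 without CR 7 with an adjusted p of 0.15.

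Egr1, a zinc finger regulator induced by growth factors and injury, spread most widely of the members with a mean above 100. It was at 1759, 232, 378, 487 and 671 normalized counts in AL 1 to AL 5 and at 151, 221, 739, 932 and 1845 in CR 1, CR 2, CR 3, CR 4 and CR 7. AL 1 and CR 7 were the highest of their groups, and the highest cornea library held 12.2 times the level of the lowest. Egr1 thus had a log2 change of -0.05 ± 0.80 (SE, interval -1.88 to 1.78, adjusted p = 0.983 by limma), and it turned positive when AL 1, AL 5, CR 1 or CR 2 was left out (0.02 to 0.40). It was -0.50 without CR 7 and -0.65 with the covariate for genes at 0. In normalized counts, the CR mean of Egr1 (778) was above its AL mean (705), so the direction depended on the scale.

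Egr2 and Egr3, relatives of Egr1 best known from Schwann cells and lymphocytes, were not tested in the cornea. Egr2 was at 0 in 2 of 5 AL and 4 of 5 CR libraries and reached 11 normalized counts in AL 1 and 13 in CR 7. Egr3 was at 0 in 4 of 5 AL and 3 of 5 CR libraries, with at most 4.09 normalized counts (CR 4). Both were therefore at or near the limit set by depth.

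Ier2, a small early response gene whose product is thought to regulate transcription and cell motility, was at 405, 328, 277, 258 and 320.3 normalized counts in AL 1 to AL 5. It was at 290.2, 324, 257, 475 and 435 in the CR libraries in the order above. CR 4 and CR 7 lay above all AL libraries and CR 3 below all of them. For Ier2 the log2 change was 0.14 ± 0.18 (SE, interval -0.24 to 0.52, adjusted p = 0.713 by limma), and it was 0.06 without CR 7. When 1 library was left out it ranged from 0.03 (without CR 4) to 0.25 (without CR 3).

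Nr4a1, an orphan nuclear receptor of stress and metabolic responses, was scarce in the cornea. It was at 16.5, 0, 24.0, 0 and 6.18 normalized counts in AL 1 to AL 5 and at 4.38, 1.88, 5.30, 2.04 and 66.9 in CR. CR 7 held 72 reads of it, and the other CR libraries were within or near the limit set by depth. Its log2 change was 0.54 ± 1.27 (SE, interval -2.12 to 3.20, adjusted p = 0.856 by limma), and without CR 7 the gene fell below the filter.

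Atf3, a stress-induced regulator of the ATF and CREB family that can pair with JUN proteins, was at 37.4, 43.7, 53.5, 30.9 and 44.3 normalized counts in AL 1 to AL 5 and at 48.2, 21.7, 43.2, 46.0 and 202 in CR. All cornea libraries but CR 7 lay between 21.7 and 53.5. Atf3 had a log2 change of 0.36 ± 0.45 (SE, interval -0.58 to 1.30, adjusted p = 0.705 by limma), and it turned to -0.12 without CR 7 and was 0.23 with the covariate for genes at 0.

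CR 7 was the highest of the 10 cornea libraries for 6 of the 8 tested genes and among the 2 highest for 7 of them. Nr4a1, among the 6, reached the filter only through CR 7. The deviation of CR 7 from the mean of its diet group, averaged over the 8 tested genes, was 1.38 on the log2 scale, against -0.67 to 0.52 in the other 9 libraries. This average includes Nr4a1, which was at 6.08 in CR 7 against a CR mean of 2.86 on that scale. The average was not taken without Nr4a1. The marker sums and the shares of genes at 0 and of Rn45s reads given above also set CR 7 apart, and their part in these values was not tested.

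**Figure D1:**
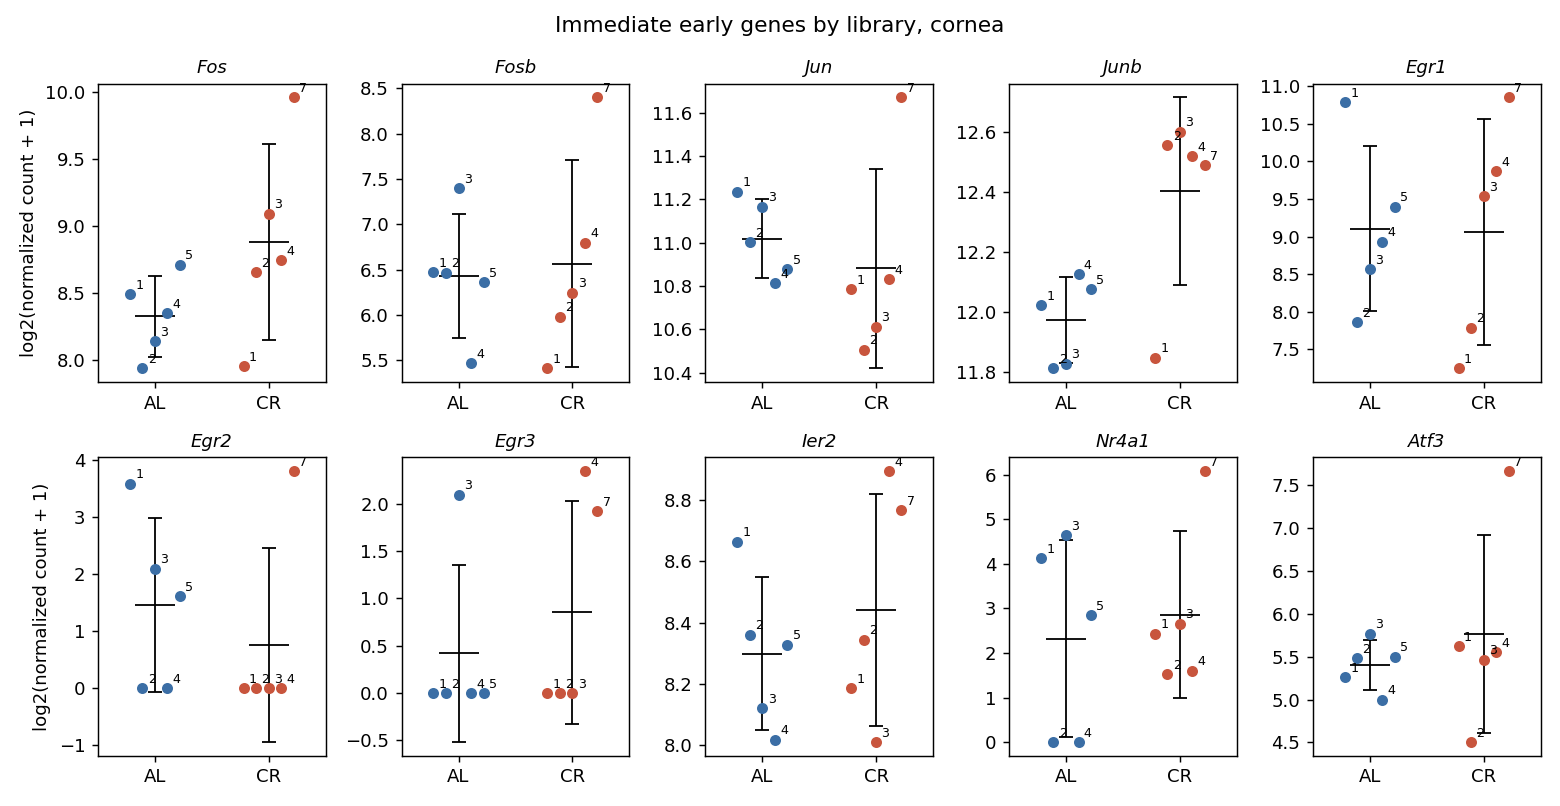
Level of each immediate early gene in each cornea library (points, numbered as in the titles), on log2 of normalized count plus 1, for AL and CR, with the group mean and SD (black, n = 5 each). CR 7 is the highest library for 6 of the 8 tested genes, and for Junb all CR libraries but CR 1 lie above the AL libraries.

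The same question was asked of the conjunctiva, where all 10 genes reached the filter. The mean on the log2 scale was lower under CR for 9 of the 10, with a median log2 change of -0.79, beside a median of -0.02 over all 13929 genes tested, of which 52.0% were lower. None of the 10 was called by limma (0 of 10, beside 0.359% of all genes) or by voom. At an unadjusted p under 0.05, 2 passed (Jun and Nr4a1), beside 9.4% of all genes. None had groups that did not overlap, beside 3.87% of all genes.

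Fos was at 396, 726, 196 and 797 normalized counts in AL 1, AL 3, AL 4 and AL 5 and at 192, 346, 126, 254 and 427 in CR 1 to CR 5. All CR libraries lay below the AL median, but AL 1 and AL 4 lay within the CR range. Fos had a log2 change of -0.90 ± 0.49 (SE, interval -2.01 to 0.21, adjusted p = 0.618 by limma), and -1.41 with the covariate for genes at 0 (adjusted p = 0.183 by limma). Fosb was at 420, 549, 96.8 and 373 in AL and at 120, 185, 135, 170.1 and 196 in CR. The other AL libraries lay far above the CR libraries, and AL 4 was the lowest of all 9. Its log2 change was -0.93 ± 0.44 (SE, interval -1.90 to 0.04, adjusted p = 0.540 by limma), and without AL 4 it was -1.47 with an adjusted p of 0.0170, so that Fosb was then called.

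Jun was at 4652, 5320.1, 3920.2 and 4377 normalized counts in AL and at 3290.4, 3941, 3099, 3892 and 3967 in CR 1 to CR 5. The ranges touched only through AL 4, which lay below CR 2 and CR 5. Jun had the smallest p of the members in the conjunctiva, with a log2 change of -0.33 ± 0.14 (SE, interval -0.63 to -0.03), an unadjusted p of 0.034 and an adjusted p of 0.471 by limma. Junb was at 4102, 4459, 2466 and 5513 in AL and at 3668, 5718, 3021, 4199 and 4791 in CR. It was the only member with a higher mean on the log2 scale under CR, by 0.07 ± 0.23 (SE, interval -0.42 to 0.57, adjusted p = 0.949 by limma), and this value turned negative without AL 4 (-0.16), without CR 2 (-0.04), under quantile normalization (-0.03) and with the covariate for genes at 0 (-0.18).

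Egr1 was at 2142, 2670, 896 and 2907 normalized counts in AL and at 458, 1244, 934, 2089 and 1641 in CR. CR 1 lay below all AL libraries and the other CR libraries between AL 4 and AL 1. Its log2 change was -0.80 ± 0.53 (SE, interval -2.02 to 0.42, adjusted p = 0.692 by limma). It was -0.48 without CR 1, -1.18 without AL 4 and -1.22 with the covariate for genes at 0.

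Egr2 was at 23.3, 62.8, 7.53 and 6.36 normalized counts in AL and at 9.74, 12.4, 16.4, 0 and 98.6 in CR. Egr3 was at 46.6, 20.2, 23.7 and 15.4 in AL and at 5.84, 0, 6.76, 0 and 207 in CR. For Egr3, every CR library but CR 5 lay below all AL libraries, and CR 5 held 187 reads, more than any other. The log2 changes were -0.56 ± 1.11 (SE, interval -2.94 to 1.82) for Egr2 and -1.97 ± 1.33 (SE, interval -4.84 to 0.89) for Egr3, with adjusted p-values of 0.914 and 0.689 by limma. Without CR 5 the value was -1.32 for Egr2 and -3.23 for Egr3, the latter with an adjusted p of 0.232 by limma, and Egr2 turned to 0.06 without AL 3 and to 0.34 without CR 4. In normalized counts, the CR means of both genes were above the AL means through CR 5 (27.4 against 25 for Egr2 and 44.0 against 26.5 for Egr3), so the direction depended on the scale.

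Ier2 was at 400, 365, 275 and 352 normalized counts in AL and at 366, 261, 237, 316 and 170 in CR. CR 2, CR 3 and CR 5 lay below all AL libraries, and CR 1 lay above AL 3. Ier2 had a log2 change of -0.40 ± 0.22 (SE, interval -0.86 to 0.06, adjusted p = 0.588 by limma), and -0.25 without CR 5.

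Nr4a1 was at 629, 567, 204 and 208 normalized counts in AL and at 167, 207, 295, 159.8 and 98.6 in CR. AL 1 and AL 3 lay far above every other library, while AL 4 and AL 5 lay within the CR range. The log2 change was -1.01 ± 0.41 (SE, interval -1.92 to -0.09), with an unadjusted p of 0.0346 and an adjusted p of 0.473 by limma, and it was -0.66 with the covariate for genes at 0. Atf3 was at 346, 351, 83.9 and 233 in AL and at 100.3, 107, 141, 135 and 165 in CR. AL 4 was the lowest of all libraries for Atf3, and the other 3 AL libraries lay above every CR library. The log2 change was -0.79 ± 0.37 (SE, interval -1.58 to 0.00, adjusted p = 0.532 by limma), and without AL 4 it was -1.25 with an adjusted p of 0.0666 by limma. Over all alternatives the adjusted p ranged from 0.0666 to 0.758.

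**Figure D2:**
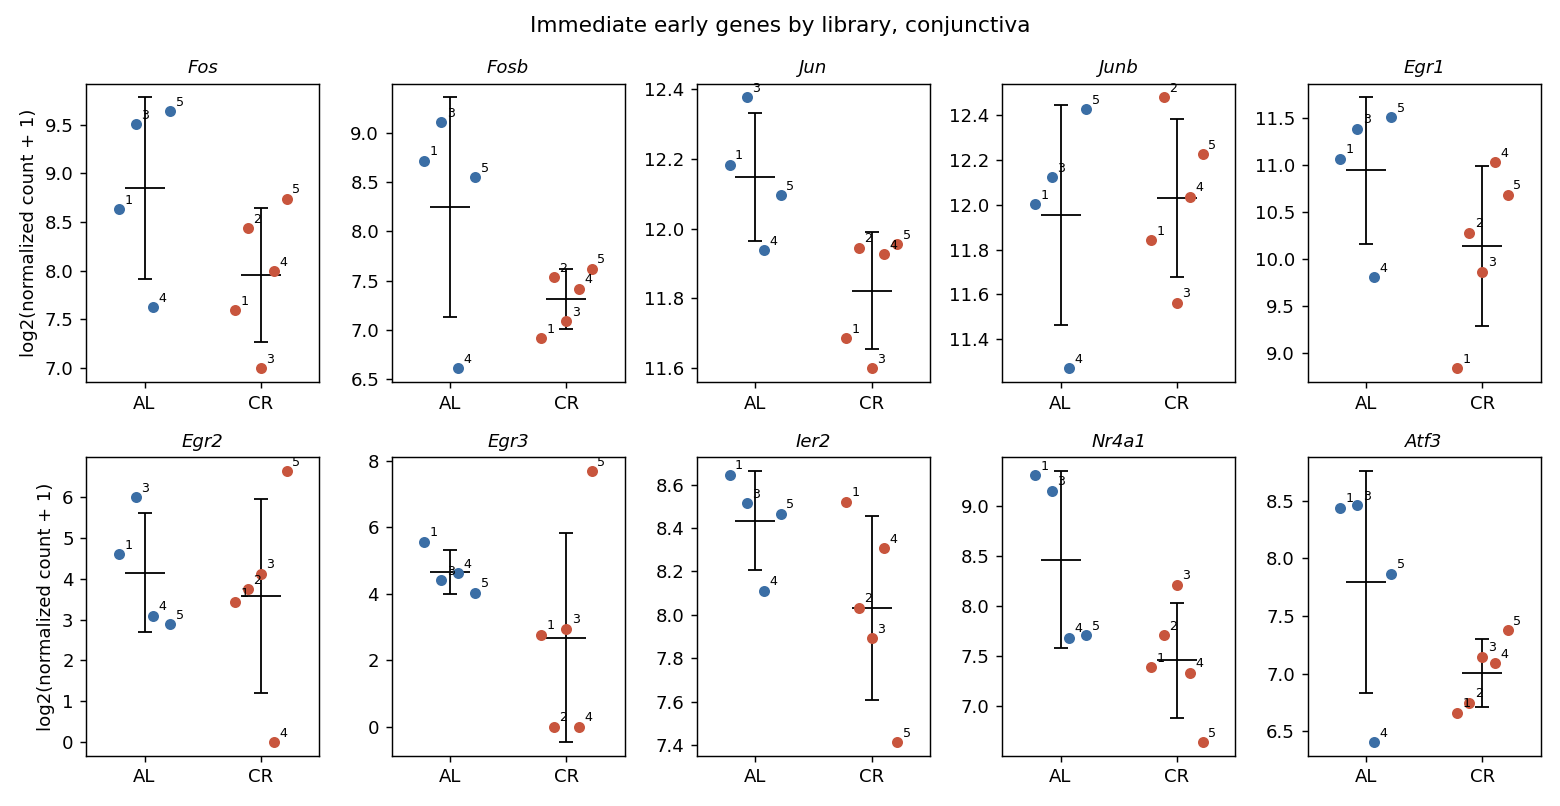
Level of each immediate early gene in each conjunctiva library (points, numbered as in the titles), on log2 of normalized count plus 1, for AL and CR, with the group mean and SD (black, n = 4 and n = 5). AL 4 sits below the other AL libraries for 8 of the 10 genes, and CR 5 is the highest library for Egr2 and Egr3.

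AL 4 was the lowest AL library for Fos, Fosb, Jun, Junb, Egr1, Ier2, Nr4a1 and Atf3, and its deviation from the AL mean, averaged over the 10 genes, was -0.85 on the log2 scale against -0.05 to 0.54 in the other AL libraries. It had the smallest share of genes at 0 of all conjunctiva libraries (33.6%). Markers of other cell types were also compared between diets in the conjunctiva. All 8 macrophage markers had a lower mean under CR, with summed levels of 3015 to 3937 normalized counts in AL and 1981 to 2869 in CR, and 0 of the 8 were called. All 8 fibroblast markers were lower, 2 of them called, with sums of 39843.2 to 59626.1 in AL and 26195 to 51684.4 in CR. For T cells, 4 of the 5 markers were in the table and summed to 14.6 to 47.2 in AL and 9.97 to 38.1 in CR. The 5 neutrophil markers summed to 25.7 to 445 in AL and 139 to 642 in CR. All 3 that were tested had a higher mean under CR (median log2 change 1.35, 0 called), while Ly6g and Mpo were at 0 in every library. The T cell and neutrophil sums overlapped between the diets. All 6 skeletal muscle markers had a higher mean under CR (median log2 change 0.56, 0 called). Of the 6 endothelium markers, 5 had a lower mean and 1 a higher mean on the log2 scale, with 0 called. In normalized counts, both Vwf (81.8 against 74.4 in AL) and Emcn (79.1 against 77.9) had a higher CR mean, and the others a lower one. The part of these cells in the values of the immediate early genes was not tested.

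The change under CR was then compared between the tissues for the 8 genes tested in both. Of these, Nr4a1 reached the filter in the cornea only through CR 7. The test treated the tissues as independent, although the paper states that several tissues were taken from each mouse. The change in the conjunctiva was lower than that in the cornea for all 8, and 0 passed an adjusted p of 0.05 over the 11929 genes tested in both, beside 0.0168% of all genes. At an unadjusted p under 0.05, 1 passed (Fos), beside 7.48% of all genes. For Fos the changes of 0.56 in the cornea and -0.90 in the conjunctiva differed by -1.45 ± 0.58 (SE, interval -2.68 to -0.23), with an unadjusted p of 0.0232 and an adjusted p of 0.610 from the difference of the limma fits. The next were Atf3 (-1.15 ± 0.58, interval -2.33 to 0.03) and Ier2 (-0.54 ± 0.28, interval -1.12 to 0.03), with adjusted p-values of 0.675 and 0.680. Intervals for Fosb, Jun, Junb, Egr1 and Nr4a1 also held 0. The direction for Jun turned without cornea CR 7 (0.0084). That for Nr4a1 turned when differences were taken per shared diet and title number, as given in the closing section.

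**Figure D3:**
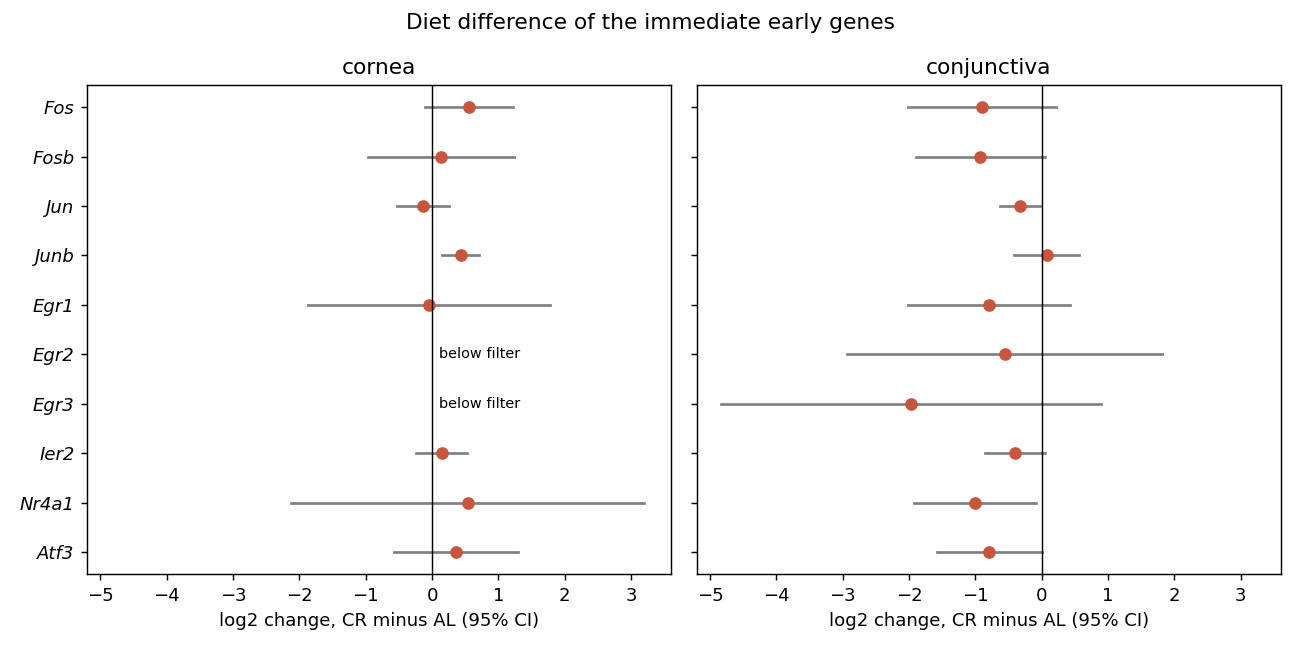
Log2 change of each gene, CR minus AL, with its 95% confidence interval (limma) in the cornea and the conjunctiva. The interval excludes 0 for Junb in the cornea and for Jun and Nr4a1 in the conjunctiva, all with adjusted p-values above 0.1, and Egr2 and Egr3 were below the filter in the cornea.

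Most members were among the more variable genes between libraries of 1 group, in part through single libraries. The within-group SD of each gene was set beside that of tested genes whose mean log2 level lay within 1 unit. In the cornea, Egr1 had an SD of 1.31 on the log2 scale, the largest of 3468 genes of similar level, whose median SD was 0.23. Fos (0.56), Fosb (0.94) and Jun (0.35) were at percentiles 98.7, 97.5 and 93.0, and the other 4 tested genes between 73.5 and 85.1. Without CR 7, Egr1 was still the largest (SD 1.18), while Fos was at percentile 92.0, Fosb at 87.9, Jun at 50.8, Junb at 82.7, Ier2 at 77.2 and Atf3 at 21.5. In the conjunctiva, 8 of the 10 were above the 90th percentile, led by Egr1 (0.82, percentile 98.8) and Fos (0.80, percentile 97.7), with Ier2 at 69.5 and Jun at 20.9. Without AL 4, Fosb was at percentile 43.5, Atf3 at 38.7 and Junb at 76.0, and without CR 5, Egr3 was at 45.2 and Egr2 at 80.9, while Fos and Egr1 stayed above the 90th percentile in both cases.

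**Figure D4:**
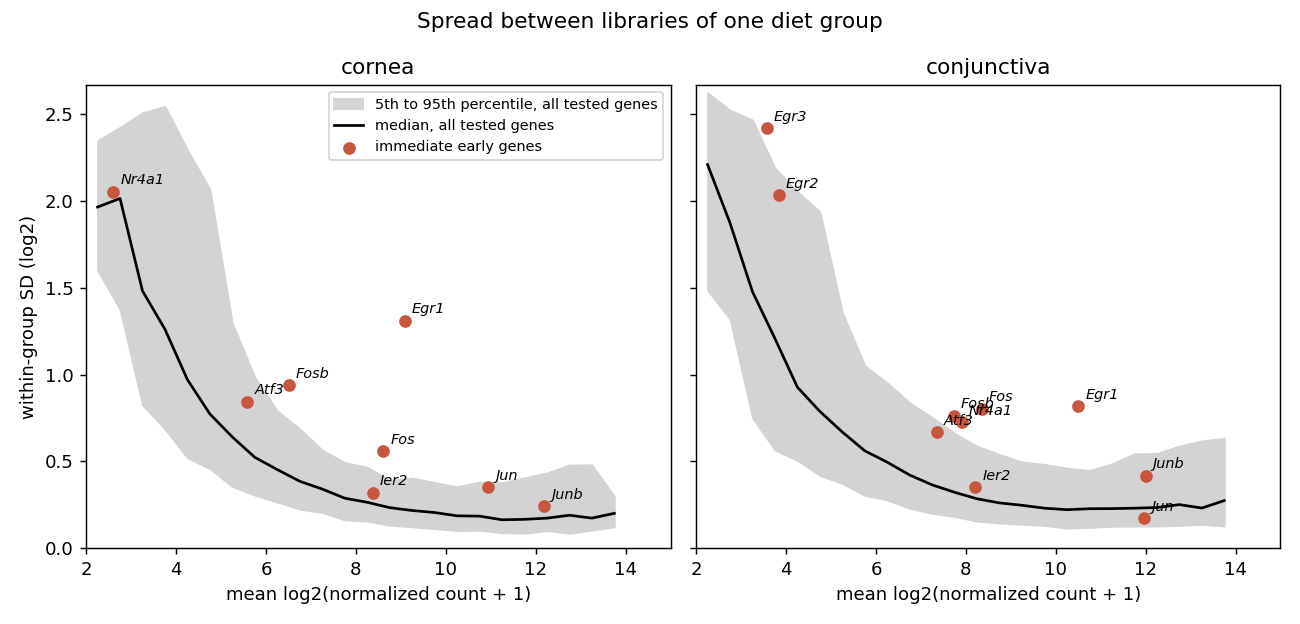
SD between libraries within a diet group (log2) against mean log2 of normalized count plus 1 for the immediate early genes (red), with the median and the 5th to 95th percentile of all tested genes (grey), in each tissue. Egr1 and Fos lie above the grey band in both tissues, and Jun lies below the median in the conjunctiva.

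The same libraries tended to be high for several members. Deviations from the diet group mean were correlated between members over the 10 cornea libraries, where 25 of 28 pairs had a positive Pearson r and 71.4% of pairs had an r over 0.5, beside 12.1% of all pairs of tested genes. The median r was 0.59. Without CR 7 the median r was 0.32, 23 of 28 pairs were positive and 28.6% had an r over 0.5, beside 13.6% of all pairs. The 28 pairs, with and without CR 7, held Nr4a1, which was below the filter without that library. The highest were Jun with Atf3 (r = 0.92, and 0.61 without CR 7), Fosb with Jun (r = 0.84, and 0.53) and Fos with Egr1 (r = 0.83, and 0.76). Fos with Egr1 had a Spearman rho of 0.84, an exact permutation p of 0.0051 within diets, an adjusted p of 0.102 over the 28 pairs and an r of 0.67 without the 2 libraries farthest from the median. Of the 28 pairs, 0 had an adjusted p under 0.05. Junb did not share the pattern of Atf3 and Jun, with r of -0.09 and -0.07.

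In the 9 conjunctiva libraries, 34 of 45 pairs were positive and 37.8% had an r over 0.5, beside 13.2% of all pairs of tested genes, with a median r of 0.27. Without AL 4 the median r was 0.12, and 24.4% of pairs had an r over 0.5, beside 15.3% of all pairs. Of the 45 pairs, 1 had an adjusted p under 0.05, Fos with Junb (Pearson r = 0.94, exact permutation p = 0.0010, adjusted p = 0.0469, Spearman rho = 0.93, adjusted p for rho = 0.109, r = 0.80 without the 2 farthest libraries). Fosb with Atf3 followed (r = 0.93, adjusted p = 0.172 by exact permutation, r = 0.65 without the 2 farthest). The lowest r were Egr3 with Ier2 (-0.61) and Egr2 with Ier2 (-0.49). CR 5 was the highest library for Egr2 and Egr3 and the lowest for Ier2 and Nr4a1. It also had the highest share of genes at 0 in the conjunctiva (40.1%) and the highest sums of neutrophil (642) and corneal epithelium (123347) markers. Its sums were the lowest for fibroblast (26195), macrophage (1981), Schwann cell (151) and T cell (9.97) markers. They were also the lowest for endothelium (577), smooth muscle and pericyte (3255) and melanocyte (63.2) markers. The part of these shares and sums in the values of the immediate early genes was not tested.

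**Figure D5:**
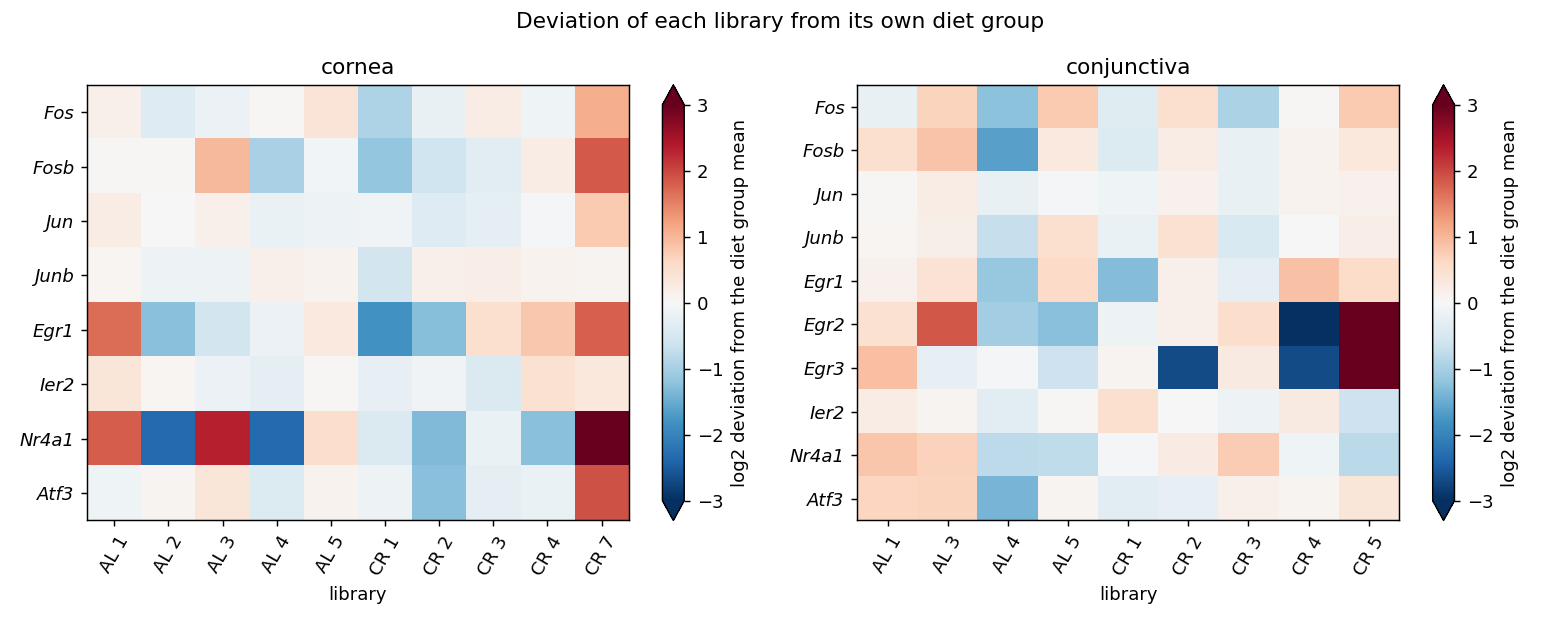
Deviation of each library from the mean of its own diet group on the log2 scale (colour, limited to the range from -3 to 3) for each tested gene (rows) and library (columns). Cornea CR 7 is above its group mean for all 8 tested genes, and conjunctiva AL 4 is below its group mean for all 10.

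For 8 title numbers that both tissues shared within a diet, deviations of the same gene were correlated between tissues, and whether a number marks 1 mouse is not given. Of the 8 genes, 0 had an adjusted p under 0.05. Fosb had the highest r (0.80, rho = 0.64, exact permutation p = 0.0399, adjusted p = 0.319, and r = 0.43 without the 2 farthest numbers).

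The genes most like the mean of the members across libraries were found by Pearson r with the mean deviation of the members from their diet groups, as a description. In the cornea, out of 12166 genes, they were Rassf4 (r = 0.98), Mrps18a (0.93), Ube2z (0.93), Yeats2 (0.91) and Bphl (0.91) over 10 libraries, and each was highest in CR 7. Without CR 7 their r was 0.93, 0.83, 0.78, 0.78 and 0.81, and Rassf4 then averaged 5.73 normalized counts, below the filter. The member mean over the 10 cornea libraries included Nr4a1. In the conjunctiva, out of 13785 genes, they were Plekha1 (r = 0.95), Dusp22 (0.94), Ogt (0.93), the heat shock co-chaperone gene Dnajb1 (0.92) and Zdhhc5 (0.92) over 9 libraries.

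Other genes of the pathway were taken from 6 lists of 84 genes, set up with earlier results of these data known and covering other AP-1 subunits, EGR and NR4A relatives, further early response genes, feedback inhibitors of MAP kinases, and the transcription factors and kinases upstream. In the cornea, 73 were tested and 4 were called, all higher under CR, beside 0.749% of all genes called higher, and 0 were called lower by limma, beside 0.472% of all genes. At an unadjusted p under 0.05, 19 of the 73 were higher, beside 8.52% of all genes, and 0 were lower, beside 9.55% of all genes, and voom called 2. In the conjunctiva, 80 were tested and 0 were called by limma or voom, with 6 higher and 5 lower at an unadjusted p under 0.05, beside 4.53% and 4.87% of all genes.

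The further early response genes carried 3 of the 4 calls, and 24 of the 25 tested had a higher mean log2 value in CR corneas, beside 46.9% of all genes tested, with a median log2 change of 0.23 beside -0.03 over all genes. Per1, a core clock gene that is also induced rapidly by glucocorticoids and cyclic AMP, was at 34.0 to 124 normalized counts in AL and 341 to 631 in CR corneas. It rose by 2.67 ± 0.30 on the log2 scale (SE, n = 5 and 5, adjusted p = 2.5e-04 by limma) and kept its call under all 22 alternatives. Gadd45b, a stress sensor that acts on MAP kinase signalling, was at 174 to 212 in AL and 331 to 415 in CR, and rose by 0.88 ± 0.14 (SE, adjusted p = 0.0030 by limma), also called under all 22. Ctgf, a matricellular growth factor gene, was at 36.3 to 97.1 in AL and 102 to 310.2 in CR, and rose by 1.38 ± 0.33 (SE, adjusted p = 0.0445 by limma), but lost its call under 11 of the 22 alternatives, among them voom and the omission of AL 1, AL 2, AL 3, AL 5, CR 3, CR 4 or CR 7.

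Among the upstream factors, Crtc2, a coactivator of CREB that responds to feeding and fasting, was at 25.3 to 63.4 normalized counts in AL and 58.0 to 239 in CR corneas. It rose by 1.62 ± 0.34 (SE, adjusted p = 0.0205 by limma), with an overlap through CR 1, and lost its call under 7 of the 22 alternatives, among them voom and the omission of AL 1, AL 3, AL 5, CR 2 or CR 3. Spred1, an inhibitor of RAS and MAP kinase signalling, passed the p threshold and not the fold threshold (0.54 ± 0.11, adjusted p = 0.0163 by limma), with 727 to 922 normalized counts in AL and 1049 to 1275 in CR. The smallest p of the AP-1 list was that of Maff (0.63 ± 0.18, adjusted p = 0.0759 by limma), of the EGR and NR4A list that of the EGR corepressor gene Nab2 (0.36 ± 0.15, adjusted p = 0.223), and of the kinase list that of Rps6ka1 (0.39 ± 0.15, adjusted p = 0.177). All 5 tested macrophage markers had a lower mean under CR in the cornea, 1 of them called, with sums of the 8 markers of 320.1 to 417 normalized counts in AL and 179 to 319 in CR, and their part in these differences was not tested.

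In the conjunctiva, Per1 was at 120 to 349 normalized counts in AL and 441 to 838 in CR, so its groups did not overlap. The log2 change was 1.55 ± 0.35 (SE, adjusted p = 0.117 by limma). Batf3, a partner of JUN proteins best known in dendritic cells, was at 23.3 to 59.2 in AL and 0 to 13.6 in CR, a log2 change of -2.77 ± 0.85 (SE, adjusted p = 0.243 by limma). Fosl1, which encodes the FOS relative FRA1, was at 7.27 to 158 in AL and 0 to 9.52 in CR, a log2 change of -2.79 ± 1.10 (SE, adjusted p = 0.409 by limma), and without AL 3 the gene fell below the filter. After Per1, the smallest p of the early response list was that of Klf6 (0.44 ± 0.16, SE, adjusted p = 0.335 by limma). Dusp10 had the smallest p of the feedback list (0.71 ± 0.28, adjusted p = 0.413 by limma) and Braf of the kinases (0.36 ± 0.16, adjusted p = 0.499). Elk4 had that of the upstream factors (-0.74 ± 0.34, adjusted p = 0.509 by limma) and Nr4a2 that of the EGR and NR4A list (0.13 ± 0.22, adjusted p = 0.899).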

How the data were processed

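Bulk RNA was sequenced from 19 libraries of cornea and conjunctiva. By the study's methods, single reads were trimmed with cutadapt, aligned to mm10 with STAR, counted per gene with HTSeq and scaled with DESeq2 on ROSALIND (versions not stated); the submitters' processing notes name GRCm39 instead. The labels name a stranded mRNA kit and the methods an oligo(dT)-primed kit, so strand use in counting is unknown. The deposited values are on a log2 scale, as counts over DESeq2 size factors plus 1, and the authors scaled each tissue in a separate table, so levels were not tested across tissues. Of 24557 features per table, 5 that repeated a symbol were left out. From these, normalized counts were computed, and 100% of values were whole reads (within 0.01 read), which gave the library totals.

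AL and CR were compared with limma 3.58.1 (statmod 1.5.0, R 4.3.3; intensity trend, robust moderation) on log2(normalized count + 1), which understates changes of low genes, for genes averaging at least 10 normalized counts, with Benjamini-Hochberg adjustment over all genes tested. A gene was called at an adjusted p under 0.05 and a fold over 1.5. Differences between tissues used Satterthwaite degrees of freedom and treated the tissues as independent. Correlations used two-sided exact permutations within diets (14400 in the cornea and 2880 in the conjunctiva), adjusted over the pairs of a tissue. The scripts were tested on simulated data. All members were named; of the other lists, genes past an adjusted p of 0.05 were named, or otherwise those with the smallest p, and the 5 genes most like the members per tissue. Members and lists were chosen with earlier results of these data known. Alternatives were other pseudocounts (0.5 and 10), filters (none and 50), scalings, voom on recovered reads, array weights, a replicate block, a covariate for the share of genes at 0, other thresholds and the omission of each library. The omission of cornea CR 7, conjunctiva AL 4 or conjunctiva CR 5 from the shares of pairs, the spreads and the likeness was chosen after seeing the data.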

Additional observations from a re-analysis of the deposited data

Results flagged for a closer look

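Gaps between libraries were taken on log2 of normalized count plus 1. In 36 groups of 4 or 5 libraries, 3 held a library whose gap to its nearest neighbour, divided by the range of the group, exceeded Dixon's 95% critical value, where chance gives about 1 in 20. The rule was not applied to normalized counts, the scale of the levels printed here, where other libraries can stand apart. All 3 were in CR corneas. For Jun, CR 7 held 3259 normalized counts against 1452 to 1822 in the other CR libraries. For Junb, CR 1 was the low library with 3686 against 5749 to 6209. For Nr4a1, CR 7 held 66.9 against 1.88 to 5.30.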

How the results depend on the processing

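The number of immediate early genes called stayed at 0 under every alternative in the cornea and in the difference between tissues, and in the conjunctiva except without AL 4, where 1 gene (Fosb) was called (range 0 to 1). The count over all genes in the cornea was 150 and moved to 99 with voom, 705 with array weights, 62 with a covariate for genes at 0 and 430 at an adjusted p under 0.1 alone, and ranged from 53 to 536 when 1 library was left out. The pathway genes called there, 4 in the main comparison, numbered 2, 8, 2 and 9 under those settings and 2 to 10 when 1 library was left out. In the conjunctiva the count over all genes was 50 and moved to 149 with array weights and 103 at an adjusted p under 0.1, with 26 to 127 when 1 library was left out. For the difference between tissues, 2 genes of all those tested passed, and 0 to 7 when 1 library was left out.

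Directions turned for values that did not pass the test. In the cornea, Fosb turned to -0.18 with array weights and -0.049 with the covariate, Nr4a1 to -0.20 with array weights, and Nab1 to -0.14 with the covariate. When 1 cornea library was left out, log2 changes ranged from -0.32 to 0.42 for Fosb, from -0.50 to 0.40 for Egr1, from -0.044 to 1.12 for Nr4a1 and from -0.12 to 0.67 for Atf3. In the conjunctiva, Junb turned to -0.028 with quantile normalization and -0.18 with the covariate, Nr4a2 to -0.025 with the covariate, and Nr4a3 to 0.071 with array weights and 0.21 with the covariate. When 1 conjunctiva library was left out, the ranges were -0.16 to 0.23 for Junb, -1.32 to 0.34 for Egr2, -0.018 to 0.28 for Nr4a2 and -0.63 to 0.067 for Nr4a3. The difference between tissues for Jun ranged from -0.28 to 0.0084, turning without cornea CR 7. Of 1174 single values under alternatives, 1101 kept their direction and call, and the cause of the others was not tested.

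Title numbers were shared between diets, but deviations of same-numbered libraries had correlations of -0.30 to 0.29 for the cornea, with -0.06 to 0.05 for the conjunctiva, so they gave no sign of pairing. With the number as a replicate block, 0 immediate early genes were called in each tissue, the counts over all genes were 101 and 52, Ctgf lost its call (adjusted p = 0.0561 by limma) and the pathway genes called in the cornea numbered 3. With differences taken per shared diet and number, a replicate block across tissues, 0 genes passed and the value for Nr4a1 turned to 0.048.

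Depth limited Egr2, Egr3 and Nr4a1 in the cornea and Egr2 and Egr3 in the conjunctiva, where some libraries held 0 reads. With 4 or 5 libraries per group, intervals for Egr1, Egr2, Egr3 and Nr4a1 were wide, so a missed threshold does not show that diets were alike.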
